A study of Mus musculus with 12 samples.

Results

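The axis of interleukin-10, interleukin-4 and interleukin-13 was read here from 7 genes, 1 ligand and 6 receptor chains, out of the 55487 genes in each of 2 tables of RNA-seq counts from mouse cells. The ligand was Il10, and the chains were Il10ra, Il10rb, Il4ra, Il2rg, Il13ra1 and Il13ra2. The genes were chosen by name, and each symbol was matched to 1 Ensembl gene of the mouse annotation on the genome build GRCm38. All 7 passed the filter on low counts in both experiments.

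Interleukin-10 is a cytokine that macrophages release to restrain their own inflammatory output. It binds a receptor made of IL-10Rα, which is particular to it, and IL-10Rβ, which other cytokines of its family share, and it acts mainly through STAT3. Interleukin-4 and interleukin-13 drive alternative activation of macrophages through STAT6. Both use IL-4Rα, paired with the common gamma chain (encoded by Il2rg) in the receptor that binds interleukin-4 alone, or with IL-13Rα1 in the receptor that binds both cytokines. IL-13Rα2 binds interleukin-13 tightly and is known as a decoy that keeps it from the signaling receptor.

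In the first experiment, bone marrow macrophages (BMMs) were differentiated with macrophage colony-stimulating factor from the leg bones of C57BL/6 mice that had undergone ovariectomy (OVX), a surgical loss of ovarian estrogen, or a sham operation, with 3 libraries per group. In the second experiment, mesenchymal stem cells (MSCs) from limbs of the same strain were cultured alone (MSC), with RAW cells, a mouse macrophage line (MSC+RAW-TW), or with RAW cells stimulated by lipopolysaccharide (LPS), a bacterial cell wall component that activates macrophages (MSC+RAW-LPS-TW), with 2 libraries per group. The labels give an age of 8 weeks for all mice, which in the methods is the age at surgery, and do not give the time after surgery, the number of mice behind a library, or the dose and time of LPS. TW stands for the transwell inserts of the study's co-cultures, but the labels of these libraries name only a co-culture. According to the methods, the MSCs were adherent marrow cells used at passage 3 with no sorting step.

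The libraries held between 17012923 and 45367105 counts. Levels are given as CPM, the counts of a gene for every 1000000 counts of its library, scaled within each experiment, so values of the 2 experiments are set side by side without a test. Sham replicates 2 and 3, and the 2 libraries of MSC+RAW-TW, differed from each other by little more than sampling noise (a chi-square of 2.70 and 3.18 times the value that sampling gives at high counts, against 15.1 to 75.5 for the other pairs). Each of these pairs was counted as 1 sample. This leaves n = 3 for OVX, n = 2 for sham, MSC and MSC+RAW-LPS-TW, and n = 1, with no SD, for MSC+RAW-TW, which the tests assumed to vary like the other groups. No label says whether samples of a group came from separate cultures, so p-values measure only the spread between these samples, which may be technical.

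The libraries labelled MSC held macrophage and stromal transcripts. All 15 macrophage markers examined had counts in each of them, with a summed level of 29614 to 29821 CPM in MSC, 40166 to 40737 CPM in MSC+RAW-TW and 15757 to 16666 CPM in MSC+RAW-LPS-TW. Lyz2, the lysozyme of myeloid cells, alone reached 9151 to 26651 CPM. The 13 stromal markers also had counts in every library of both experiments and summed to 2195 to 4297 CPM, below the 7276 to 8428 CPM of the BMM libraries. Surface markers used to define MSCs differed from each other. Thy1 was at 0.240 to 2.16 CPM against 52.6 to 69.2 CPM in BMMs, but Eng was at 61.6 to 131 against 18.4 to 30.0 CPM, and Nt5e was within the 2.18 to 9.44 CPM of BMMs except with LPS, where it was 52.9 and 55.1 CPM. The methods describe the MSCs as positive for CD73 and negative for CD45 by surface staining, among other markers. The paper reads the missing blood cell markers as a lack of contamination by such cells. Ptprc, the gene of CD45, was at 89.5 to 227 CPM in the libraries labelled MSC. Whether the cells stained were those sequenced is not given in the sources used here. The libraries of both experiments are therefore described by their labels only, and levels in them cannot be assigned to stromal cells or macrophages. In such bulk samples, fewer cells of a type and less RNA per cell cannot be told apart.

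A gene was said to have risen or fallen where its p from edgeR's quasi-likelihood F-test, adjusted by Benjamini-Hochberg over all genes tested, was 0.05 or less, with no limit on the fold. Between OVX and sham, 3 of the 7 genes fell and 0 rose, where 13.1% of all genes tested changed, 7.25% rising and 5.83% falling. Between MSC+RAW-TW and MSC, 6 of 7 changed (4 rose and 2 fell), against 28.6% of all genes (13.8% rising and 14.8% falling). Between MSC+RAW-LPS-TW and MSC, 4 of 7 changed (3 rose and 1 fell), against 20.9% (11.1% and 9.85%). Between the 2 co-cultures, all 7 changed (3 rose and 4 fell in MSC+RAW-LPS-TW), against 40.2% (21.3% and 18.9%). With a fold of at least 2 asked for as well, 2, 1, 3 and 5 of the 7 genes were called in the same order of comparisons, against 8.46%, 16.4%, 10.9% and 27.4% of all genes. The counts given below for the gene lists are to be set beside the same shares of all genes. The 3 comparisons in the second experiment share samples and are not independent of each other. The median gene was shifted by -0.13 in MSC+RAW-TW against MSC and by 0.14 between the co-cultures on the log2 scale. Once genes averaging under 1 CPM were left out, these medians were -0.014 and 0.012. The shift was therefore not seen among genes above that level and is no offset for their changes.

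**Figure D1:**
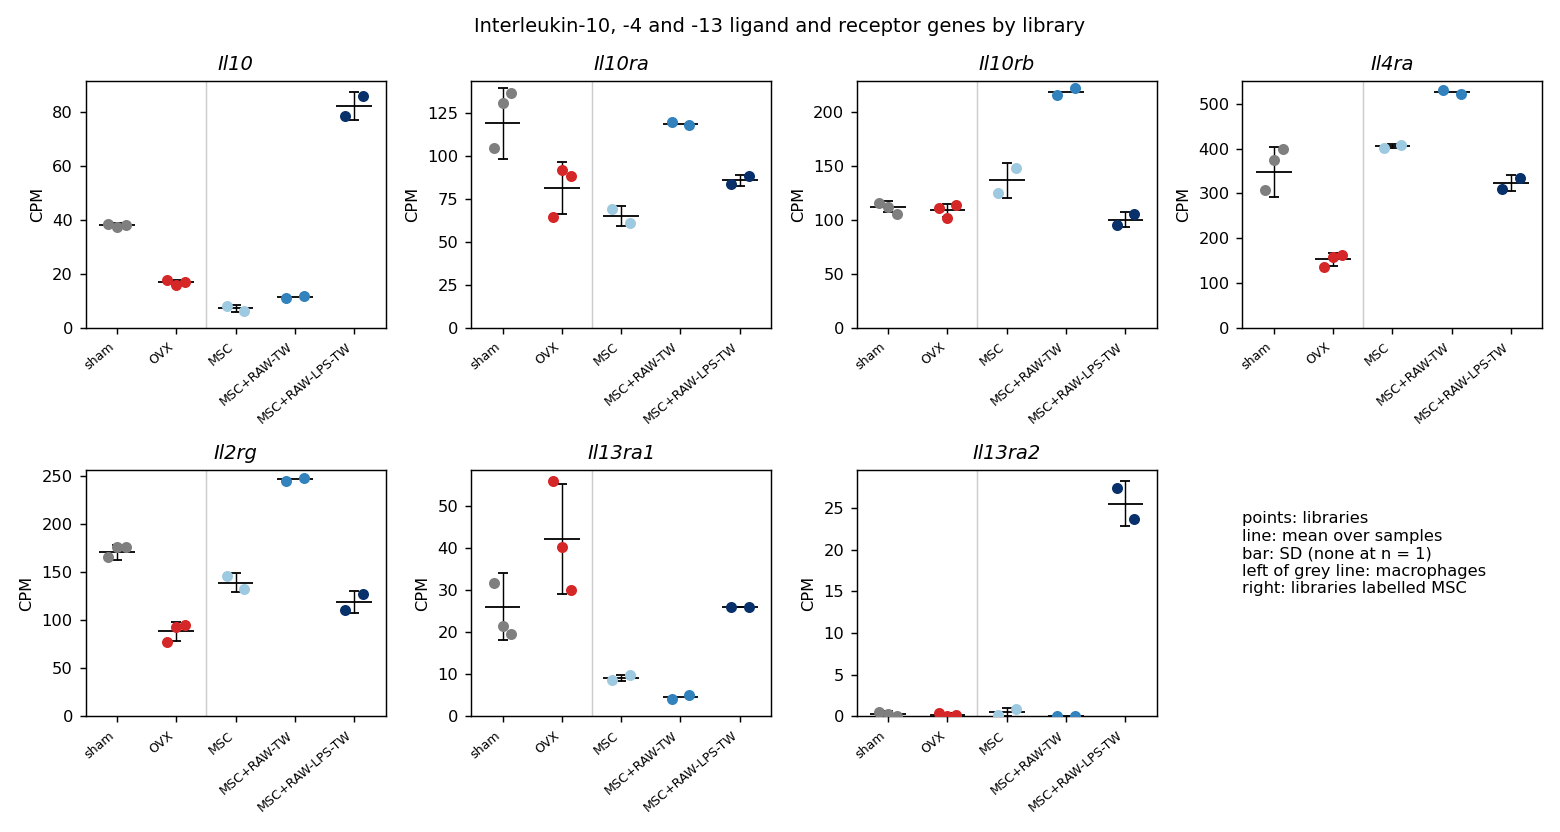
CPM (linear axes from 0) of the 7 genes in every library, BMM libraries left of the grey line and libraries labelled MSC right of it, with points for libraries, lines for means over samples and bars for SD. Il10 lies at 78.3 and 85.7 CPM in MSC+RAW-LPS-TW and at most 38.5 CPM elsewhere, and Il13ra2 exceeds 1 CPM only in MSC+RAW-LPS-TW.

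Il10, on chromosome 1 (chr1:131019845-131024974, plus strand), was 2.29-fold lower in OVX BMMs than in sham BMMs. OVX replicates 1 to 3 held 17.5, 15.8 and 16.9 CPM of Il10. Sham replicates 1 to 3 held 38.5, 37.3 and 38.0 CPM. The groups did not overlap, and the spread within each was small beside the gap between them. The mean was 16.7 ± 0.843 CPM (SD, n = 3) in OVX and 38.0 ± 0.593 CPM (n = 2) in sham, a fall by 1.2 on the log2 scale (SE 0.171, adjusted p = 0.00779, edgeR). Within the 2 series of library identifiers that the column names carry, the log2 ratio of OVX to sham was -1.15 and -1.23. The near-identical sham replicates 2 and 3 lie in different series, so these ratios are not independent. The call depended on OVX replicate 2, without which the log2 difference was -1.15 and the adjusted p 0.0585, the highest of 14 alternatives whose adjusted p ran down to 6.57e-08.

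Among the libraries labelled MSC, Il10 was highest beside LPS-stimulated RAW cells. Il10 stood at 8.04 and 6.31 CPM in MSC, at 11.1 and 11.5 CPM in MSC+RAW-TW, and at 78.3 and 85.7 CPM in MSC+RAW-LPS-TW. The 3 groups did not overlap. In MSC+RAW-LPS-TW, Il10 was 11.4-fold higher than in MSC (log2 3.51, SE 0.185, adjusted p = 1.46e-09, edgeR), and 7.09-fold higher than in MSC+RAW-TW (log2 2.83, SE 0.234, adjusted p = 3.25e-07). Both differences passed the test in all 14 alternatives. The smaller rise from MSC to MSC+RAW-TW was 1.60-fold (log2 0.68, SE 0.207, adjusted p = 0.0229), and without MSC replicate 2 it was 0.52 on the log2 scale with an adjusted p of 0.213, where the 14 alternatives spanned 0.00232 to 0.213. Across the 5 groups, the order of Il10 from high to low was MSC+RAW-LPS-TW, sham, OVX, MSC+RAW-TW and MSC.

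Il10ra, which encodes the ligand-binding chain of the interleukin-10 receptor (chr9:45253837-45269149, minus strand), was expressed in every library at 60.6 to 136 CPM. OVX replicates 1 to 3 held 64.1, 91.5 and 87.9 CPM, and sham replicates 1 to 3 held 104, 130 and 136 CPM. The groups did not overlap, but the difference of -0.56 on the log2 scale (SE 0.219) did not pass the test (adjusted p = 0.128, edgeR), which it passed in 2 of 14 alternatives. In the second experiment Il10ra was lowest in MSC, at 69.1 and 60.6 CPM, highest in MSC+RAW-TW, at 119 and 118 CPM, and in between in MSC+RAW-LPS-TW, at 83.2 and 88.0 CPM. Il10ra rose 1.87-fold from MSC to MSC+RAW-TW (log2 0.90, SE 0.179, adjusted p = 0.002). Between the co-cultures it fell by 0.50 with LPS (SE 0.180, adjusted p = 0.0369), but 5 of 14 alternatives, whose adjusted p spanned 0.00424 to 0.33, did not give this call. They were the fits without MSC replicate 1 (adjusted p = 0.0859), without MSC replicate 2 (0.0918), without MSC+RAW-TW library 1 (0.0513), on the co-cultures alone (0.0869), and after trends on GC content and length of the genes had been taken out of each library (-0.21, adjusted p = 0.33). The 0.40 between MSC+RAW-LPS-TW and MSC did not pass (adjusted p = 0.078), and passed in 3 of 14 alternatives.

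Il10rb, the shared chain (chr16:91406164-91425834, plus strand), showed no difference between OVX and sham beyond the spread of libraries. Its OVX libraries held 111, 102 and 114 CPM and its sham libraries 116, 112 and 105 CPM, so the ranges overlapped (log2 -0.05, SE 0.170, adjusted p = 0.877). Like Il10ra, it was highest in MSC+RAW-TW, but MSC+RAW-LPS-TW lay below MSC. MSC held 125 and 148 CPM, MSC+RAW-TW 216 and 222 CPM, and MSC+RAW-LPS-TW 95.1 and 105 CPM. Il10rb rose 1.63-fold from MSC to MSC+RAW-TW (log2 0.71, SE 0.183, adjusted p = 0.00989), a call lost without MSC replicate 1 (adjusted p = 0.139, where the 14 alternatives ran down to 0.000365). With LPS it was 2.23-fold lower than in MSC+RAW-TW (log2 -1.16, SE 0.182, adjusted p = 0.000135). Between MSC+RAW-LPS-TW and MSC the fall by 0.45 (SE 0.154) lay at the threshold (adjusted p = 0.0493), and 4 of 14 alternatives did not give it, among them leaving out MSC replicate 1 (adjusted p = 0.118) or MSC replicate 2 (adjusted p = 0.501, the highest, with 0.0114 the lowest). The annotation puts 569 of the 3808 exon bases of Il10rb, 14.9%, inside Gm21970 on the same strand, where reads could be shared or left uncounted.

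Il4ra encodes the chain common to both receptors of interleukin-4 and interleukin-13 (chr7:125552120-125579474, plus strand). It was 2.30-fold lower in OVX than in sham. OVX replicates 1 to 3 held 136, 159 and 162 CPM of Il4ra, and sham replicates 1 to 3 held 307, 374 and 398 CPM. The highest OVX library stood far below the lowest sham library. The means were 152 CPM (n = 3) and 347 CPM (n = 2), a fall by 1.2 on the log2 scale (SE 0.189, adjusted p = 0.00893, edgeR). The fall was 0.83 with the GC and length trends taken out (adjusted p = 0.0156), and without OVX replicate 2 the adjusted p was 0.0615, the highest of 14 alternatives that ran down to 5.83e-07. Among the libraries labelled MSC the level was 402 and 409 CPM in MSC, 531 and 521 CPM in MSC+RAW-TW and 310 and 335 CPM in MSC+RAW-LPS-TW, without overlap. Only the step between the 2 co-cultures passed the test, where LPS went with a 1.67-fold lower level (log2 -0.74, SE 0.176, adjusted p = 0.00356), and with the trends removed it was -0.36 (adjusted p = 0.103). The differences from MSC were 0.40 for MSC+RAW-TW (adjusted p = 0.101, passed in 5 of 14 alternatives) and -0.33 for MSC+RAW-LPS-TW (adjusted p = 0.134, passed in 2 of 14).

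Il2rg encodes the common gamma chain, which also serves the receptors of interleukins 2, 7, 9, 15 and 21 (chrX:101264378-101268255, minus strand). It fell in OVX together with Il4ra. OVX replicates 1 to 3 held 77.4, 92.3 and 95.2 CPM of Il2rg, and sham replicates 1 to 3 held 165, 176 and 176 CPM. The groups were far apart compared with their spread. The fall was 0.96 on the log2 scale (SE 0.178, adjusted p = 0.0143, edgeR), it was 0.95 with the trends removed (adjusted p = 0.0156), and without OVX replicate 2 its adjusted p was 0.079, the highest of 14 alternatives that ran down to 2.57e-05. The MSC libraries held 146 and 132 CPM of Il2rg, MSC+RAW-TW 245 and 248 CPM and MSC+RAW-LPS-TW 111 and 127 CPM. Il2rg rose 1.81-fold from MSC to MSC+RAW-TW (log2 0.85, SE 0.179, adjusted p = 0.00282) and with LPS was 2.11-fold lower than in MSC+RAW-TW (log2 -1.08, SE 0.179, adjusted p = 0.000217). The -0.23 between MSC+RAW-LPS-TW and MSC did not pass (adjusted p = 0.349). In the annotation 728 of its 2387 exon bases, 30.5%, are shared with Gm20489 on the same strand, and 571 of the 6002 exon bases of Il4ra, 9.51%, lie opposite Gm44876.

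Il13ra1 encodes the chain that pairs with IL-4Rα in the receptor for interleukin-13 (chrX:36112110-36171259, plus strand). In BMMs it did not follow Il4ra. OVX replicates 1 to 3 held 55.9, 40.2 and 30.0 CPM of Il13ra1, and sham replicates 1 to 3 held 31.7, 21.3 and 19.4 CPM. OVX replicate 3 fell below sham replicate 1, so the groups overlapped, and the 0.68 on the log2 scale (SE 0.303) did not pass the test (adjusted p = 0.172, edgeR), which it passed in 3 of 14 alternatives. Once the GC and length trends were taken out it was 0.03 (adjusted p = 0.942). Il13ra1 was at 8.70 and 9.71 CPM in MSC, at 4.13 and 5.0 CPM in MSC+RAW-TW and at 26 CPM in both libraries of MSC+RAW-LPS-TW. With LPS-stimulated RAW cells it was 2.83-fold higher than in MSC (log2 1.5, SE 0.192, adjusted p = 2.85e-05) and 5.62-fold higher than in MSC+RAW-TW (log2 2.49, SE 0.261, adjusted p = 3.31e-06), and both calls held in all 14 alternatives. It fell by 0.99 on the log2 scale from MSC to MSC+RAW-TW (SE 0.244, adjusted p = 0.00731), but by 0.31 with the trends removed (adjusted p = 0.331).

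Il13ra2, the decoy receptor gene (chrX:147383476-147429192, minus strand), was close to absent except beside LPS-stimulated RAW cells. The OVX libraries held 14, 1 and 4 counts and the sham libraries 21, 4 and 0 counts, under 1 CPM each, where 3 counts, the limit that a count of 0 allows, are 0.0781 to 0.190 CPM. No difference was detectable at this depth (adjusted p = 0.659). MSC replicates 1 and 2 held 5 and 28 counts, or 0.102 and 0.821 CPM, and both MSC+RAW-TW libraries held 0. The MSC+RAW-LPS-TW libraries held 913 and 741 counts, or 27.4 and 23.6 CPM. Against MSC+RAW-TW, with a limit of 3 counts in the shallower library, Il13ra2 was at least 296-fold higher with LPS (adjusted p = 4.47e-07) and at least 5.35-fold higher in MSC (adjusted p = 0.00553). The latter limit rests on MSC replicate 2, since it was 9.52-fold for that library and 1.18-fold for MSC replicate 1 alone. Against MSC, the fitted log2 difference in MSC+RAW-LPS-TW was 5.92 (SE 0.480, adjusted p = 2.02e-07), and it ran from 4.95 without MSC replicate 1 to 7.93 without MSC replicate 2. Intervals and limits of this kind cover counting error only.

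The upstream sequences of 3 of the X-linked genes are shown because Il13ra2 and Il13ra1 rose together with LPS-stimulated RAW cells while Il2rg was lower than in MSC+RAW-TW. Each is the 250 bases before the RefSeq transcription start on GRCm38.p6, read 5′ to 3′ on the strand of the gene, with motif matches in capitals. They lie at chrX:147429193-147429442 on the minus strand for Il13ra2, chrX:36111858-36112107 on the plus strand for Il13ra1 and chrX:101268256-101268505 on the minus strand for Il2rg.
Il13ra2: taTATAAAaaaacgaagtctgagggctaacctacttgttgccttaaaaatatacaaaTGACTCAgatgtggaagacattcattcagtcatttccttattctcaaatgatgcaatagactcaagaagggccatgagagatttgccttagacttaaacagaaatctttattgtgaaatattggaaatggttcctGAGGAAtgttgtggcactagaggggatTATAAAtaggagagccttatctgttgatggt
Il13ra1: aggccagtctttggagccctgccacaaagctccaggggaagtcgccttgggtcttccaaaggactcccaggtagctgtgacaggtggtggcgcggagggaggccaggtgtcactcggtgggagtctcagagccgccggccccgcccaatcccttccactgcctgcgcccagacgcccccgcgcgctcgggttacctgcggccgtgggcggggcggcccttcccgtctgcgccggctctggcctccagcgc
Il2rg: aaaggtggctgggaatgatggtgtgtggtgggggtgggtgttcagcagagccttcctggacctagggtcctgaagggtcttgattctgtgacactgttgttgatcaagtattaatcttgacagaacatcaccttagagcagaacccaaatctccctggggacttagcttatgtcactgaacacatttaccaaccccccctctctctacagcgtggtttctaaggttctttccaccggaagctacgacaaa
A window was found for 4 of the 7 genes, these 3 and Il4ra, and not for Il10, Il10ra and Il10rb. Both strands were searched for TTCNNNGAA (STAT), the STAT6 motif, which has 1 more base in its middle, the NF-kB motif, TGANTCA (AP-1) and TGACGTCA (CRE). The same was done for GAGGAA, bound by PU.1, a factor of myeloid cells. The TATA box was searched as TATAAA. Of the 4 windows, the one of Il13ra2 held matches, TGACTCA from -193 to -187, GAGGAA from -58 to -53, and TATAAA from -248 to -243 and from -31 to -26, counted back from the start. The other 3 windows held no match, which says only that these letters are not in this window. Of 32851 windows of all genes, 7.02% held the STAT motif, 5.85% that of STAT6, 7.25% that of NF-kB, 6.75% that of AP-1, 1.55% CRE, 23.3% that of PU.1 and 12.4% the TATA box. A match is a description of the letters and not a binding site.

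**Figure D2:**
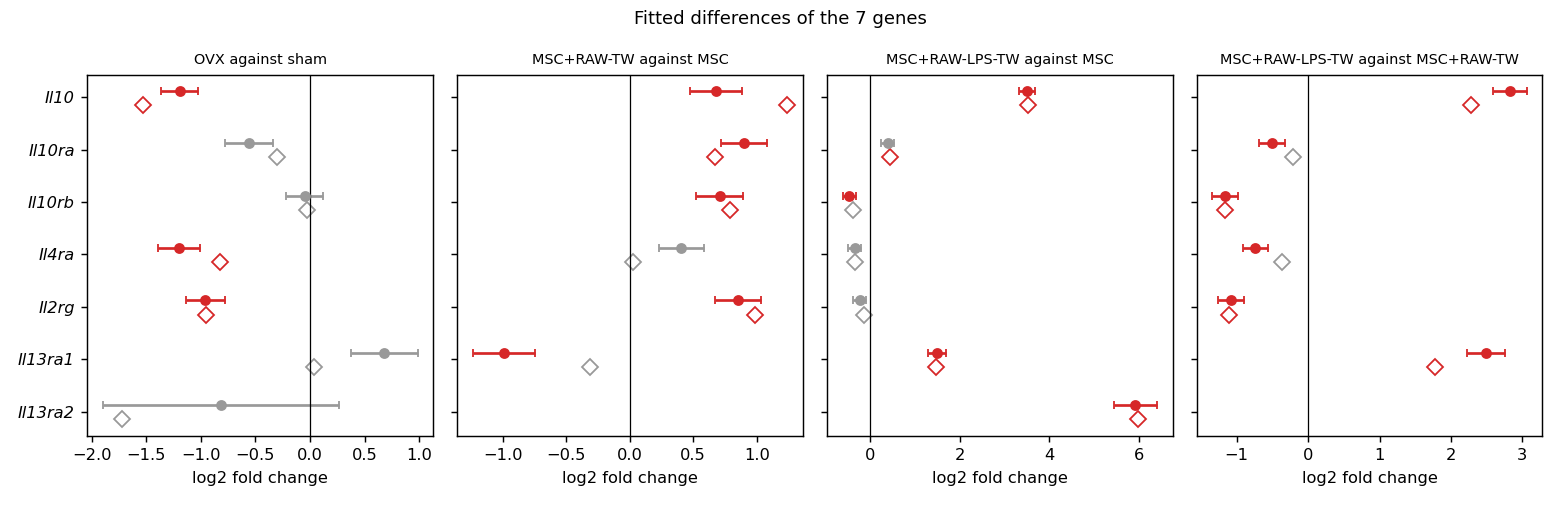
Log2 fold change of each gene in the 4 comparisons, with filled circles and SE bars from the edgeR fit, open diamonds from the fit without GC and length trends, and red where the adjusted p is at most 0.05. Il13ra2 is left out of the comparisons with MSC+RAW-TW, where it has 0 counts, and Il10, Il4ra and Il2rg are red in both fits of OVX against sham.

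The libraries differed along the GC content of genes, and these 7 genes span much of that range, from 37.4% in Il13ra2 and 41.2% in Il13ra1 to 55.8% in Il4ra. Across genes, Spearman's rho of the level against the experiment's mean with GC content was -0.608, -0.427 and -0.332 in OVX replicates 1 to 3 and 0.221, 0.523 and 0.532 in sham replicates 1 to 3. It was 0.404 and 0.401 in MSC+RAW-TW and between -0.314 and -0.146 in the other libraries labelled MSC. Without these trends, the fall of Il10 in OVX was 1.53 on the log2 scale (adjusted p = 0.00316), and the same 3 genes, Il10, Il4ra and Il2rg, passed the test. The rise of Il10 from MSC to MSC+RAW-TW was then 1.24 (adjusted p = 0.00232). The calls not given with the trends removed were those of Il13ra1 in MSC+RAW-TW against MSC, Il10rb in MSC+RAW-LPS-TW against MSC, and Il10ra and Il4ra between the co-cultures.

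Per kilobase of exon, Il10 stood below Il10ra and Il10rb, the chains of its receptor, in OVX, MSC and MSC+RAW-TW. In sham it was at 29.0 ± 0.452 CPM per kb, with Il10rb at 29.4 ± 1.37 and Il10ra at 33.9 ± 5.88, no difference beyond the spread. Only in MSC+RAW-LPS-TW did it stand above both chains. There Il10 led the 7 genes with 62.6 ± 3.98 CPM per kb (SD over 2 samples), ahead of Il4ra at 53.7 ± 2.98 and Il2rg at 49.9 ± 4.83, which do not differ beyond their spread. In the other groups Il2rg or Il4ra led, with Il2rg at 71.5 ± 3.29 CPM per kb in sham, 37.0 ± 4.0 in OVX and 103 in MSC+RAW-TW, and Il4ra at 67.5 ± 0.767 in MSC. Il13ra1 and Il13ra2 were the 2 lowest in all 5 groups, and in MSC+RAW-LPS-TW they stood in reverse order, with Il13ra2 at 11.2 ± 1.17 CPM per kb and Il13ra1 at 7.01 ± 0.00716.

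The ratio of Il4ra to Il13ra1 per kilobase, a transcript measure of how the 2 chains of the interleukin-13 receptor are balanced, covered 1.51 to 3.34 in OVX, 5.99 to 12.7 in sham, 26 to 28.6 in MSC, 64.4 to 79.5 in MSC+RAW-TW and 7.37 to 7.96 in MSC+RAW-LPS-TW. OVX and sham did not overlap, and neither did the 3 groups of the second experiment. These 2 genes differ in GC content by more than any other pair with a level above 1 CPM in all libraries. With the GC and length trends removed, the log2 difference of OVX from sham went from -1.2 to -0.83 for Il4ra and from 0.68 to 0.03 for Il13ra1. From MSC to MSC+RAW-TW it went from 0.40 to 0.02 and from -0.99 to -0.31. The 2 genes thus lay closer together in both comparisons, but hardly moved in MSC+RAW-LPS-TW against MSC, at -0.34 and 1.47. The ratio itself was not tested without the trends. Il13ra1 to Il2rg, the 2 partners between which IL-4Rα divides, lay between 0.203 and 0.465 in OVX, between 0.0709 and 0.124 in sham and between 0.0109 and 0.151 in the libraries labelled MSC. Il4ra to Il2rg, the 2 chains of the receptor for interleukin-4 alone, was 0.677 to 0.699 in OVX and 0.740 to 0.900 in sham, and among the libraries labelled MSC it was lowest in MSC+RAW-TW, at 0.837 to 0.863. The ratio of Il10ra to Il10rb ran from 0.628 to 0.977 in OVX and from 0.980 to 1.41 in sham, ranges that nearly touch. In the libraries labelled MSC it was highest in MSC+RAW-LPS-TW, at 0.913 to 0.952, against at most 0.603 in the other groups.

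**Figure D3:**
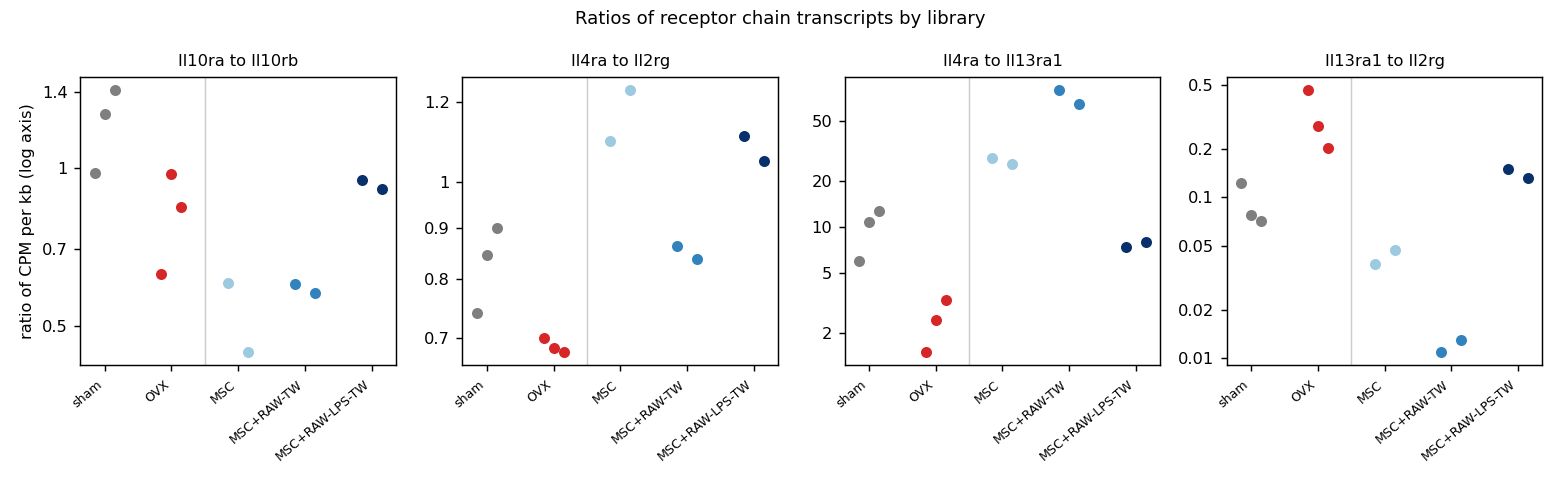
Ratio of CPM per kb (log axes) between pairs of receptor chain genes, 1 point per library, BMM libraries left of the grey line and libraries labelled MSC right of it. Il4ra to Il13ra1 is at most 3.34 in OVX and at least 64.4 in MSC+RAW-TW.

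The other ligands were scarce. Il4 was measured at 6.55, 5.80 and 7.11 CPM in OVX replicates 1 to 3 and at 1.90, 4.49 and 4.31 CPM in sham replicates 1 to 3, with no overlap, but the 1.03 on the log2 scale did not pass the test (SE 0.366, adjusted p = 0.1, and 0.46 with the trends removed). Among the libraries labelled MSC, Il4 was lowest where Il10 was highest. It was 7.55 and 5.95 CPM in MSC, 9.14 and 8.66 CPM in MSC+RAW-TW and 2.19 and 3.03 CPM in MSC+RAW-LPS-TW, where it fell by 1.38 against MSC (SE 0.284, adjusted p = 0.0022) and by 1.80 against MSC+RAW-TW (SE 0.323, adjusted p = 0.000413), or by 2.56 with the trends removed. The 0.43 from MSC to MSC+RAW-TW did not pass (adjusted p = 0.331), but with the trends removed it was 1.16 (adjusted p = 0.0264). Of 2 basophil protease genes examined because basophils make interleukin-4, Mcpt8 was at 40.6 and 48.3 CPM in MSC, 78.3 and 76.7 CPM in MSC+RAW-TW and 103 and 112 CPM in MSC+RAW-LPS-TW, while Prss34 was at 0 in both co-cultures against 0.204 and 0.176 CPM in MSC. Their part in the Il4 levels was not tested. Il13 had 2 counts in OVX replicate 3 and 0 in the other libraries, which allows up to 0.190 CPM.

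Of the interleukin-10 family ligands together with Il4 and Il13, 7 genes in all, 3 could be tested in the second experiment. Il19, a family member that signals through IL-20Rβ, had 4.51 ± 0.0683 CPM (SD over 2 samples) with LPS-stimulated RAW cells, 0 counts in MSC+RAW-TW and up to 2 counts in a library of MSC, and it rose against both groups (adjusted p = 2.71e-06 against MSC and 1.22e-05 against MSC+RAW-TW). Il20rb, the receptor chain for Il19, was 1 of 2 testable genes among 5 other receptor chains of this family, and rose from 0.961 ± 0.778 CPM in MSC to 4.43 ± 0.409 CPM in MSC+RAW-LPS-TW (log2 2.17, SE 0.50, adjusted p = 0.00505). In BMMs none of the 3 testable chains of that list passed edgeR's test, with adjusted p-values of at least 0.426.

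Of 11 other chains and ligands of the common gamma chain receptors, 7 could be tested in BMMs, where 2 rose and 1 fell in OVX (median log2 -0.16, against -0.01 over all genes). Il2ra, the alpha chain of the interleukin-2 receptor, fell from 5.72 ± 0.669 CPM in sham to 1.17 ± 0.339 CPM in OVX (adjusted p = 0.00767). Il7r, the interleukin-7 receptor chain, rose from 1.14 ± 0.198 to 4.48 ± 0.690 CPM (adjusted p = 0.00925), and its ligand Il7 from 2.27 ± 0.133 to 6.81 ± 2.41 CPM (adjusted p = 0.0233), but neither passed with the trends removed (adjusted p = 0.0552 and 0.136). The list had 0 rises and 1 fall without OVX replicate 2, 1 and 1 without OVX replicate 1, and 2 and 2 without sham replicate 1. In MSC+RAW-LPS-TW against MSC, 2 of 8 rose and 3 fell. Il2ra rose there from 0.427 ± 0.147 to 16.6 ± 2.04 CPM (log2 5.23, SE 0.328, adjusted p = 1.04e-08), while Il21r, the interleukin-21 receptor, fell from 137 ± 4.19 to 36.5 ± 4.08 CPM (log2 -1.91, SE 0.157, adjusted p = 2.36e-07). From MSC to MSC+RAW-TW, 0 rose and 4 fell by edgeR, Il7r (log2 -1.48, adjusted p = 0.0102) and Il15 (log2 -1.41, adjusted p = 0.0277) among them. Without MSC replicate 2 the counts were 0 and 1, without MSC+RAW-LPS-TW library 2 they were 1 and 4, and 0 passed with the trends removed. Between the co-cultures 3 rose and 1 fell (3 and 2 without MSC+RAW-LPS-TW library 1), with Il15ra, the interleukin-15 receptor alpha chain, at 2.64 (adjusted p = 8.56e-05).

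Among the genes that carry or restrain the signal, 18 Janus kinases, STATs, adaptors and inhibitors, 7 fell and 1 rose in OVX BMMs (median log2 -0.55). Socs3, the inhibitor that interleukin-10 is known to induce through STAT3, fell from 231 ± 3.95 CPM in sham to 79.7 ± 19.1 CPM in OVX (log2 -1.55, SE 0.224, adjusted p = 0.00798). Socs1, an inhibitor of Janus kinases, fell from 10.1 ± 1.92 to 4.36 ± 1.38 CPM (log2 -1.22, adjusted p = 0.0377), a call not given with the trends removed (adjusted p = 0.103). Socs2, an inhibitor of growth hormone signaling, rose from 10.4 ± 0.887 to 20.3 ± 2.53 CPM (log2 0.95, adjusted p = 0.0241), and also did not pass with the trends removed (adjusted p = 0.0718). With the trends removed 4 genes fell and 0 rose. Without OVX replicate 2, 0 of the 18 passed edgeR's test in either direction, with 10 at an unadjusted p under 0.05, and without OVX replicate 1, 3 fell and 0 rose.

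Of 11 genes known to rise in macrophages given interleukin-10, 5 fell and 0 rose in OVX (median log2 -0.62), and with the trends removed the counts were 5 and 0 again. One of the 5 is Il4ra, which the list shares with the 7 genes. Bcl3, a nuclear partner of NF-kB that interleukin-10 induces, fell from 89.1 ± 14.2 to 25.4 ± 2.59 CPM (log2 -1.82, SE 0.189, adjusted p = 0.00397). Without OVX replicate 2, 1 gene of this list fell and 0 rose. Of 22 response genes of interleukin-4 and interleukin-13, 19 could be tested, of which 3 fell, 2 rose and 14 did not pass (median log2 -0.03). Mrc1, the mannose receptor CD206 of alternatively activated macrophages, rose from 50.3 ± 0.152 to 203 ± 40.6 CPM (log2 2.0, SE 0.223, adjusted p = 0.00453), while Batf3, a transcription factor, fell from 19.2 ± 1.44 to 3.79 ± 0.530 CPM (log2 -2.35, SE 0.219, adjusted p = 0.00273). Egr2, a transcription factor induced by interleukin-4, rose (log2 1.23, adjusted p = 0.0192) and Tgm2, a transglutaminase, fell (log2 -0.80, adjusted p = 0.0237, and 0.153 with the trends removed). The list had 2 rises and 1 fall with the trends removed, 4 and 2 without sham replicate 1, 2 and 1 without OVX replicate 3, and 1 and 1 without OVX replicate 1 or 2. Without OVX replicate 2, 309 of all genes were called in place of 2193.

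Of 16 regulators of Il10 transcription, 1 rose and 1 fell in OVX (median log2 -0.36), where 13.1% of all genes changed. They were Creb1 (log2 0.81, adjusted p = 0.0335) and Irf5 (log2 -0.94, adjusted p = 0.0138). Neither passed with the trends removed (adjusted p = 0.799 and 0.0856), where 2 other genes fell. Without OVX replicate 1 or 2, 0 of the 16 passed edgeR's test, with 5 at an unadjusted p under 0.05 in each case. Without OVX replicate 3, 0 rose and 2 fell, and without sham replicate 1, 1 rose and 5 fell. With LPS-stimulated RAW cells against MSC, 9 of the 16 rose and 1 fell (9 and 2 without either library of MSC+RAW-LPS-TW, median log2 0.80, against -0.01 over all genes). Prdm1, which encodes the repressor Blimp-1 known to promote Il10 in T cells, rose from 2.48 ± 1.02 to 19.2 ± 3.68 CPM (log2 2.97, SE 0.296, adjusted p = 1.92e-06). Cebpb, a transcription factor of inflammatory macrophages, rose from 41.0 ± 6.67 to 151 ± 27.0 CPM (log2 1.88, SE 0.177, adjusted p = 1.01e-06). Irf5, a factor of inflammatory macrophages reported to repress Il10, fell from 170 ± 1.70 to 87.8 ± 9.98 CPM (log2 -0.95, SE 0.152, adjusted p = 0.000233). From MSC to MSC+RAW-TW, 4 regulators rose and 2 fell (0 and 3 without MSC replicate 1, 1 and 1 without MSC replicate 2, 2 and 3 without MSC+RAW-TW library 1), with Rps6ka5, the kinase MSK1, at -2.82 on the log2 scale (adjusted p = 0.000989) and Cebpb at 0.89 (adjusted p = 0.00482). With the trends removed 2 rose and 2 fell, Rps6ka5 was at -2.12 (adjusted p = 0.00789), and Cebpb was at 0.16 and did not pass (adjusted p = 0.576). Between the co-cultures, 10 rose and 2 fell in MSC+RAW-LPS-TW, with Prdm1 at 3.82 on the log2 scale (adjusted p = 4.12e-06).

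Of the inhibitors on the signaling list, Socs3 and Socs1 rose with LPS-stimulated RAW cells relative to MSC, while Socs2 and Inpp5d fell and others did not pass the test. Socs3 rose from 25.1 ± 0.878 CPM in MSC to 419 ± 5.17 CPM in MSC+RAW-LPS-TW (log2 4.06, SE 0.165, adjusted p = 9.23e-11), and Socs1 from 11.9 ± 2.08 to 125 ± 4.07 CPM (log2 3.40, SE 0.178, adjusted p = 1.42e-09). Of the 18 signaling genes 5 rose and 4 fell (5 and 1 without MSC replicate 1, 4 and 1 without MSC replicate 2, median log2 0.03), with Inpp5d, the lipid phosphatase SHIP1, at -0.84 (adjusted p = 0.000623) and Socs2 at -0.93 (adjusted p = 0.0113). Against MSC+RAW-TW, Jak2, the kinase, rose from 34.0 to 403 ± 21.8 CPM (log2 3.53, SE 0.220, adjusted p = 1.33e-08), and 6 genes of the list rose and 7 fell. From MSC to MSC+RAW-TW, 4 of the 18 signaling genes rose and 0 fell, where 28.6% of all genes changed. These counts moved as libraries were left out, also those of MSC+RAW-LPS-TW, which enter the fit through the shared spread. Ptpn6, the phosphatase SHP-1, led the 4 (log2 0.91, adjusted p = 0.00208), and 2 passed with the trends removed.

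With LPS-stimulated RAW cells against MSC, 6 of the 11 interleukin-10 response genes rose and 2 fell (5 and 1 without MSC replicate 2, median log2 0.47). Bcl3 rose from 13.7 ± 1.96 to 45.4 ± 0.342 CPM (log2 1.72, SE 0.174, adjusted p = 2.3e-06). Etv3, a transcriptional repressor, fell (log2 -1.24, adjusted p = 0.000112), as did Cd163, the hemoglobin scavenger receptor, from 5.86 ± 0.295 to 2.39 ± 0.05 CPM (log2 -1.29, adjusted p = 0.00593). From MSC to MSC+RAW-TW 2 rose and 1 fell, where 28.6% of all genes changed, and with the trends removed the counts were 1 and 0. By edgeR these counts were 0 and 0 without MSC replicate 2 (with 4 genes at an unadjusted p under 0.05), 1 and 0 without MSC replicate 1, 1 and 1 without MSC+RAW-TW library 2, and 5 and 2 or 5 and 1 without MSC+RAW-LPS-TW library 1 or 2. Between the co-cultures 4 rose and 2 fell, with Ddit4, a stress-induced inhibitor of mTORC1, at 1.17 (adjusted p = 0.000382) and Socs3 at 3.30 (adjusted p = 1.85e-08).

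The response genes of interleukin-4 and interleukin-13 split in the same comparison, with 6 of 18 tested genes up, 6 down and 6 not passing (median log2 0.45). Slc7a2, a transporter of cationic amino acids, rose from 48.8 ± 0.575 to 1662 ± 319 CPM (log2 5.09, SE 0.195, adjusted p = 5.14e-11). Mrc1 fell from 588 ± 6.69 to 4.0 ± 0.0192 CPM (log2 -7.20, SE 0.196, adjusted p = 1.66e-12), and Mgl2, a lectin of alternatively activated macrophages, from 15.4 ± 0.725 to 0.401 ± 0.0265 CPM (log2 -5.25, SE 0.278, adjusted p = 1.5e-09). From MSC to MSC+RAW-TW, 2 response genes rose and 2 fell (0 and 2 without either MSC replicate, 1 and 2 without MSC+RAW-TW library 2, 3 and 4 or 3 and 3 without MSC+RAW-LPS-TW library 1 or 2), with Mgl2 at 0.83 (adjusted p = 0.0155) and Mrc1 at -0.96 (adjusted p = 0.00167). With the trends removed 2 rose and 1 fell, and Mrc1 was at -0.38 and did not pass (adjusted p = 0.137). Over all genes tested, 28.6% changed from MSC to MSC+RAW-TW. Slc7a2, Mrc1 and Mgl2 are also genes that other signals move, and the list does not separate these.

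**Figure D4:**
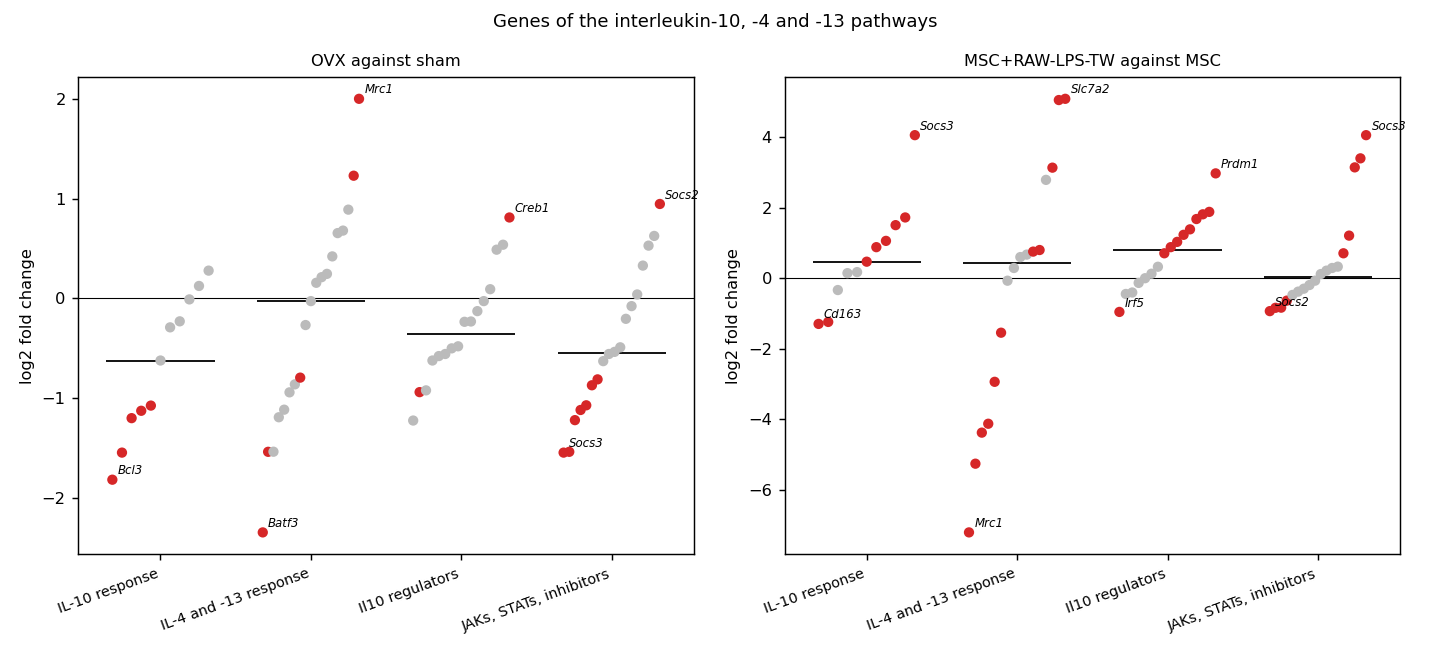
Log2 fold change of the genes of 4 pathway lists in OVX against sham (left) and MSC+RAW-LPS-TW against MSC (right), 1 point per gene ordered by value, red where the adjusted p is at most 0.05, with a line at the median of the genes drawn and the outermost genes named where red. Genes with at most 3 counts in every library of a group are not drawn. No interleukin-10 response gene is red above 0 in OVX, and Mrc1 lies at 2.0 on the left and -7.20 on the right.

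Cell type markers moved with several of these results. In OVX against sham, 8 of 15 macrophage markers fell and 0 rose, and their summed level was 45752 to 49604 CPM in OVX and 63264 to 67639 CPM in sham. The 5 B cell markers summed to 8.53 to 9.44 CPM in OVX and 20 to 22.8 CPM in sham, and the 6 neutrophil markers to 1062 to 1162 and 684 to 829 CPM. Most of the neutrophil sum was S100a8 and S100a9, of which S100a9 rose (log2 0.67, adjusted p = 0.041) as the only 1 of the 6 to pass edgeR's test, while the granule genes Elane (-0.60), Mpo (-0.98) and Camp (-0.25) had log2 values below 0. Il10, Il4ra and Il2rg fell in the same libraries, and the part of these markers in their fall was not tested. From MSC to MSC+RAW-TW, 7 macrophage markers rose and 3 fell, and from there to MSC+RAW-LPS-TW 5 rose and 9 fell. Their summed level was highest in MSC+RAW-TW and lowest in MSC+RAW-LPS-TW, the order that Il2rg, Il4ra and Il10rb also had, and their part in these 3 genes was not tested. Most of that sum was Lyz2, at 9151 to 26651 CPM in these libraries. Adgre1, 1 of the 5 markers that rose while 9 fell, was at 332 and 337 CPM in MSC+RAW-TW and 1535 and 1404 CPM in MSC+RAW-LPS-TW. Il10, Il13ra1 and Il13ra2 were highest where the sum was lowest. The 13 stromal markers summed to 4261 to 4297 CPM in MSC+RAW-LPS-TW, above MSC at 2732 to 2869 CPM, and the 6 neutrophil markers to 370 to 556 CPM against 11.7 to 16.4 CPM, with up to 4 of the 6 at 0 and most of the sum from S100a8, at 341 and 517 CPM with LPS.

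The genes whose pattern was most like that of each of the 7 were found by Pearson's r of log2(CPM + 1) over the 10 samples of both experiments among 13503 genes, as a description. For Il10 they were Socs3 (r = 0.98), Rbpms (0.98) and Procr (0.98). Socs3 followed Il10 in every group, being higher in sham than OVX and highest in MSC+RAW-LPS-TW. For Il13ra2 they were Ereg, Prg4 and Igsf6 (0.99 each), and for Il13ra1 Brinp3 (1.00), Dtwd1 (0.99) and Sh3yl1 (0.98). For Il4ra they were Kcnab2 (0.99), Xylt2 (0.99) and Vps11 (0.98), for Il2rg Bcat2, Fem1a and Ppp2r1a (0.97 each), for Il10ra Slc44a2, Ptp4a3 and Mus81 (0.98 each), and for Il10rb Lsm2 (0.97), Zfp622 (0.96) and Timp2 (0.95). The 10 points share groups and experiments, including the step between the 2 experiments.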

How the data were processed

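Per the labels and methods, the authors selected poly(A) RNA, used a kit that keeps the strand, sequenced read pairs, trimmed them with Trim Galore 0.6.7, mapped them to GRCm38 with HISAT2 2.1.0 and counted reads per Ensembl gene with featureCounts 2.0.1. The deposited values are raw counts, neither normalized nor filtered, with a gene length in bases beside them. The strand setting of the counting is not given in the sources used here. Of the low counts of a library, 60.0% to 71.4% were even numbers, and limits at a count of 0 cover counting error only. All 12 libraries were used. The 2 columns of MSC+RAW-TW share 1 name and those of MSC+RAW-LPS-TW carry numbers unlike the titles, so these libraries were assigned to a group and not to a replicate.

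GENCODE vM21 named 55141 of 55487 genes. Counts were tested with edgeR 4.0.16 in R 4.3.3 (TMM, filterByExpr, quasi-likelihood F-test, two-sided, Benjamini-Hochberg over 16768 genes for BMMs and 20499 for the libraries labelled MSC, which were fitted together). SE is the log2 fold change divided by the square root of F. Near-identical pairs were summed in the fits and averaged in means. The RefSeq windows come from GRCm38.p6. The members and gene lists were chosen with earlier results of these data known. Named are all 7 genes, Il4 and Il13, and for each list the largest 2 rises and 2 falls among genes that passed the test with a mean of at least 1 CPM, and the 3 genes of most like pattern. One gene that this rule names is not reported here. Lyz2, Thy1, Eng, Nt5e, Ptprc, Mcpt8, Prss34 and the neutrophil genes are singled out from the marker lists after their values were seen. Alternatives were RLE scaling, DESeq2 1.42.0, other filters, a fold limit of 2, every library as its own sample, with and without a block, lowess trends (span 0.3) on GC content and length removed, each library left out (for the gene lists too, chosen after seeing the data) and only the groups compared. The fits were run on simulated counts with a linear GC trend, the same in every OVX library. With edgeR it gave many false calls when left in and few once removed. The removal step fits trends of this kind, so the outcome checks the code only. It does not measure the trends of the real libraries, which differed within groups. Each call that was not given with the trends removed is to be read with both fits in view.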

Additional observations from a re-analysis of the deposited data

How the results depend on the processing

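Of 387 values of single genes under an alternative, 353 kept direction and side of the threshold, 16 lost the call, 15 gained one and 3 changed sign. Those 3 did not pass in the first place. They were Il10rb in OVX against sham, between -0.0783 and 0.00621 as each library was left out, with values above 0 without OVX replicate 2 (0.00621) or sham replicate 1 (0.00459), and Il13ra2, between -1.15 and 0.74, the latter without sham replicate 1.

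In OVX against sham, the number of the 7 genes called ran from 0 to 4 as each library was left out, with 0 without OVX replicate 2, and the number of all genes called from 309 (without OVX replicate 2) to 3376 (without sham replicate 1), with 742 without OVX replicate 1 and 1357 without OVX replicate 3, against 2193. All genes called numbered 3446 with DESeq2, 3380 with no filter, 1419 with a fold limit of 2, 4144 with every library as its own sample and 1113 with the trends removed, where 406 rose and 707 fell against 1216 and 977. With every library as its own sample and the replicate number as a block, 6318 genes and 5 of the 7 were called. Il10ra (adjusted p = 0.00294, edgeR) and Il13ra1 (adjusted p = 0.0014) were added to those of the main fit. Both the summing of libraries and the block differ there from the main fit. Same-numbered libraries correlated at 0.365, -0.0124 and 0.313 in their deviations, and replicate 2 did not correlate best with its own number, so the numbers were not taken as pairs. The columns of the co-cultures carry no replicate numbers that match the labels, so no block by replicate number was fitted there.

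In MSC+RAW-TW against MSC, the fold limit left 1 of the 7 genes and 3360 of all genes, all genes called ran from 3587 (without MSC replicate 2) to 8113 as libraries were left out, and every library as its own sample gave 9312, or 9280 with the identifier series as a block, each series with 1 library of each group, chosen after seeing the data. Of 18806 genes tested with that block, 9280, 5329 and 10940 were called in the 3 comparisons in the order of the report, with 7, 5 and 7 of the 7 genes. With the trends removed the split there was 2542 up and 1579 down, against 2836 and 3026. In MSC+RAW-LPS-TW against MSC, the fold limit gave 2243 and leaving out libraries 2759 (without MSC replicate 1) to 5157. Leaving out a library of a group of 2 leaves 1 sample, assumed to vary like the others. Of the 21 genes of most like pattern, 18 remained over the 12 libraries and 20 with another pseudocount. The limits are the 2 or 3 samples per group and the single sample of MSC+RAW-TW.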
